A study of Mus musculus castaneus and Mus musculus domesticus and Mus musculus with 11 samples.

Results

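The Notch and proneural genes described here were 9 rows of a read count matrix of 27071 genes, chosen by gene symbol: the receptors Notch1, Notch2 and Notch3, the ligands Dll1, Dll3 and Jag1, the effectors Hes1 and Hes5, and the proneural factor Neurog2. All 9 had a row, and 7 of them passed the filter on low counts. Hes5 and Neurog2 did not pass it, and they are given by their read counts. The matrix holds polyadenylated RNA from motor neurons differentiated from stem cells of 3 mouse lines, with 3 libraries per line. A parental line was 129S6/SvEv (129 below) and the other CAST/EiJ (CAST below), which descends from wild mice. Their cross, labelled CASTx129 or 129CAS, is named the hybrid. The labels give neither a treatment nor a time of culture, nor whether a line is 1 clone, nor whether replicates were cultured separately. The p-values therefore measure only the spread between these libraries, which may be technical. A library is called by its line and replicate number, so that CAST 1 is replicate 1 of CAST.

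Notch receptors are cleaved when a ligand on a neighbouring cell binds them, and the freed intracellular domain joins RBPJ to switch on target genes. The main targets in the developing nervous system are Hes genes, whose products repress proneural factors such as Neurog2 and keep cells as progenitors. Cells that escape this repression raise proneural factors and Delta-like ligands and leave the cycle as neurons. In vessel walls and connective tissue the same receptors, with Jag1 as a common ligand, act in mural cells and fibroblasts.

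Total counts ran from 7763077 to 18167577 reads per library. A pair of libraries stood apart from the others of their lines in how abundance varied with transcript length: per doubling of exon length, log2 CPM (counts scaled to library size by TMM) relative to the 9-library mean changed by −0.49 in CAST 1 and −0.60 in hybrid 2, against 0.17 and 0.27 in the other CAST libraries and 0.066 and −0.25 in the other hybrid libraries. The 129 libraries lay between 0.25 and 0.31. All 9 motor neuron markers listed had reads in every line, with Prph, a neuronal intermediate filament, at 240.2 to 2996 CPM, and Mnx1, a defining transcription factor, at only 0.495 to 4.88 CPM. Lhx3, another such factor, had 0 reads in hybrid 1 and 35 at most, in 129 2. Markers of other cells were also present: the summed CPM of 10 fibroblast markers was 7434 to 30850 in 129, 1599 to 39167 in the hybrid and 627 to 10129 in CAST.

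None of the 7 tested genes passed the threshold by edgeR in any comparison, and the receptors and Jag1 varied widely between libraries of 1 line. Dll3, a Delta-like ligand that acts inside the cell, had higher values in all hybrid and all CAST libraries than in any 129 library. Jag1 had lower values in all CAST libraries than in any 129 library, and Hes1 higher values in all hybrid libraries than in any 129 library. Within CAST the receptors spread from 6.09 to 311 CPM, with replicate 1 the lowest for each. Hes5 and Neurog2 were close to absent.

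**Figure D1:**
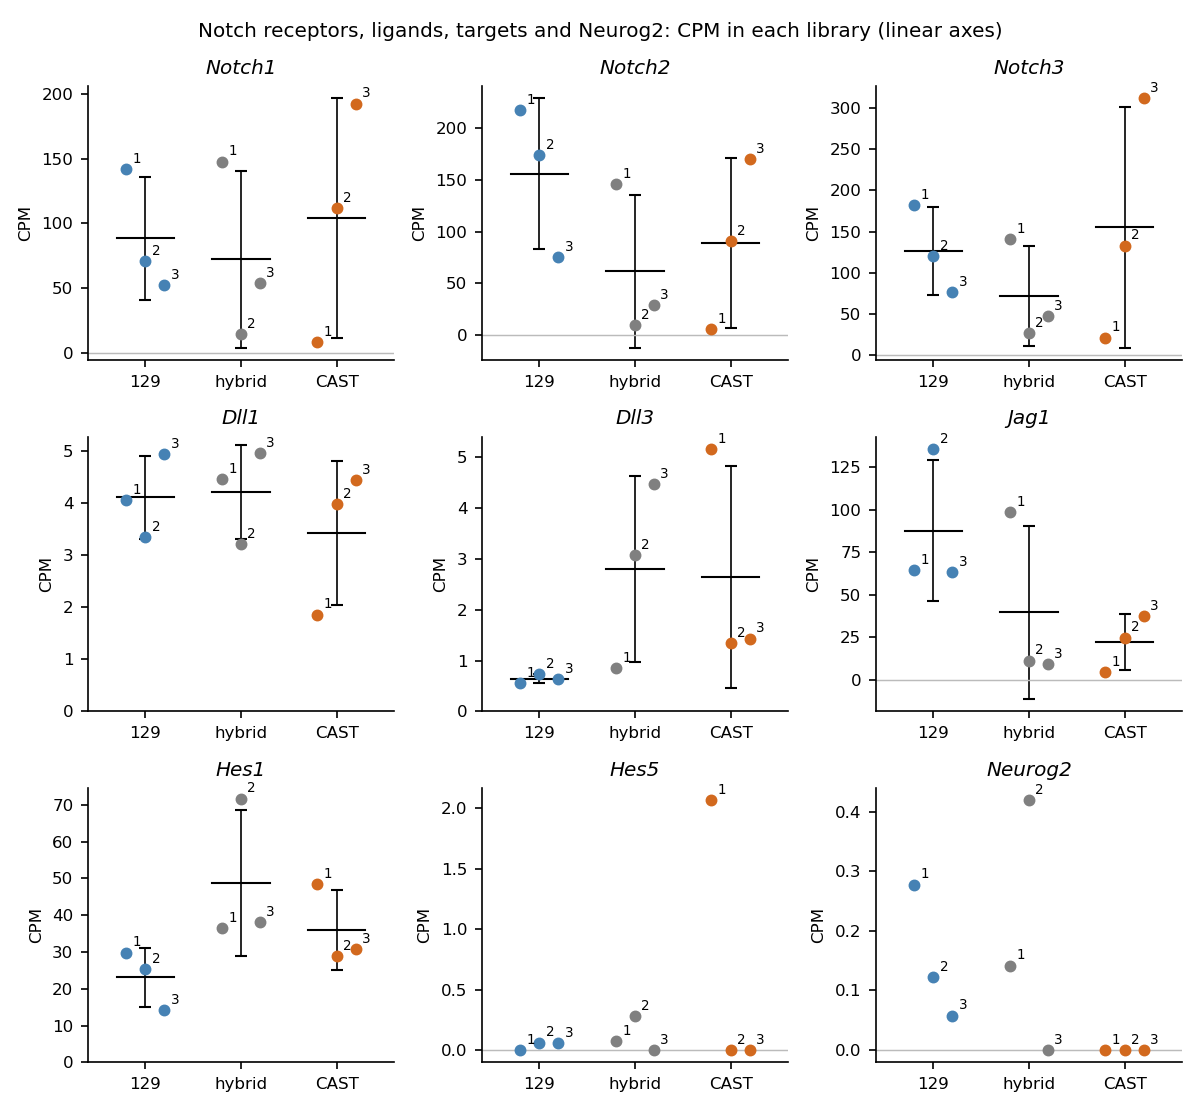
Each panel plots 1 gene, with CPM after TMM scaling on the vertical axis and the 3 lines on the horizontal axis. Points are libraries, and black bars are the mean and SD of 3 libraries, drawn for the 7 tested genes only. The receptors and Jag1 spread widely within lines, Dll1 stays between 1.86 and 4.96 CPM, and Dll3 is lowest in the 129 libraries.

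Notch1 (ENSMUSG00000026923; mm10 chromosome 2, 26457903 to 26516663, minus strand) is the best known receptor of the neural progenitor. Its values in replicates 1 to 3 were 142, 70.6 and 52.6 CPM in 129, 148, 14.8 and 53.9 CPM in the hybrid, and 8.36, 112 and 192 CPM in CAST. CAST held both the lowest and the highest of the 9 libraries, and the 3 lines overlapped. The mean was 88.4 ± 47.3 CPM in 129 (SD, n = 3), beside 72.2 ± 68.3 in the hybrid and 104 ± 92.3 in CAST. CAST minus 129 was 0.24 ± 1.01 (log2, SE), with a 95% interval from −2.04 to 2.51 and an adjusted p of 0.912 by the quasi-likelihood test of edgeR. That interval spans changes of several fold in either direction.

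Notch2 (ENSMUSG00000027878; chromosome 3, 98013527 to 98150361, plus strand), a receptor also used in progenitors and vessel walls, had 218, 174 and 75.5 CPM in 129, 146, 9.64 and 29.0 CPM in the hybrid, and 6.09, 91.1 and 170.1 CPM in CAST. The lowest libraries were CAST 1 and hybrid 2, the same pair that stood apart by transcript length, and the lines overlapped. Hybrid minus 129 was −1.34 ± 1.14 (log2, SE; edgeR adjusted p = 0.475), and CAST minus 129 was −0.81 ± 1.13 (edgeR adjusted p = 0.712).

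Notch3 (ENSMUSG00000038146; chromosome 17, 32120820 to 32166852, minus strand) is the receptor of mural cells and is also present in neural progenitors. It had 182, 120.2 and 76.2 CPM in 129, 140.4, 26.8 and 47.9 CPM in the hybrid, and 21.4, 133 and 311 CPM in CAST. CAST 1 was again the lowest and CAST 3 the highest, and the lines overlapped. CAST minus 129 was 0.30 ± 0.87 and hybrid minus 129 was −0.81 ± 0.88 (log2, SE; edgeR adjusted p = 0.865 and 0.566).

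Both low libraries were low for long transcripts in general, and all 3 receptor genes have long exon unions (14232, 10782 and 8089 bases in GENCODE). When each library's length trend over all tested genes was removed, CAST 1 stayed the lowest CAST library for Notch1, at 23.1 CPM against 90.7 and 135. For Notch2 the same values were 13.7, 75.8 and 130 CPM, and for Notch3 38.3, 115 and 259 CPM. The ratio between CAST 1 and the next CAST library thus shrank for each receptor, and CAST 1 remained the lowest. Hybrid 2 stayed the lowest hybrid library for each receptor as well, at 29.5, 17.3 and 41.4 CPM.

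**Figure D2:**
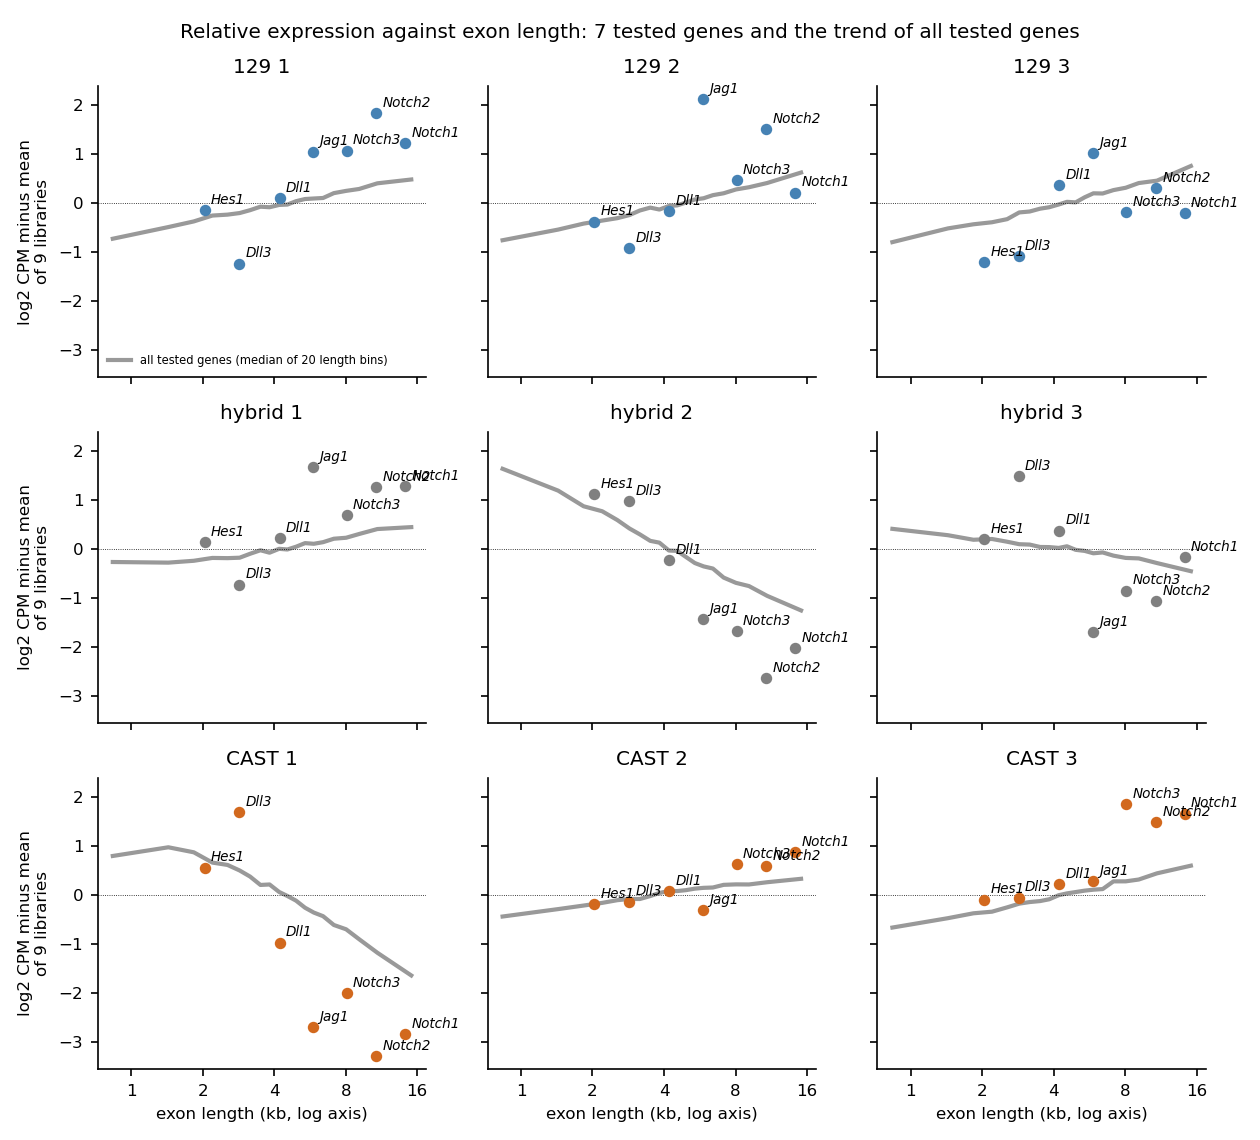
Each panel is 1 library, with exon length in kilobases on the horizontal axis (log scale) and log2 CPM minus the mean of the 9 libraries on the vertical axis. The grey line joins medians of all tested genes in bins of length, and points are the 7 tested members. The line slopes downwards most in CAST 1 and hybrid 2, where the receptors and Jag1 lie below it.

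Other cell type markers varied between the same libraries. Within 129, replicate 3 had the lowest level of each receptor, the lowest summed fibroblast markers (7434 against 30850 and 29553 CPM) and the highest summed neuron markers (13163 against 5352 and 8205 CPM). Within CAST, replicate 1 had the lowest receptors, with 627 CPM of fibroblast markers against 7063 and 10129, and 15119 CPM of neuron markers against 9888 and 6973. That neuron sum followed its most abundant markers, such as Tubb3 and Stmn2. Dcx, Map2, Elavl2, Elavl3, Elavl4 and Syt1 were each lowest in CAST 1 within CAST, a library low for long transcripts in general. Within the hybrid, replicate 1 had the highest receptors, with 39167 CPM of fibroblast markers against 4139 and 1599, and 5381 CPM of neuron markers against 9922 and 13652. Hybrid 2, lowest in each receptor, had neither the lowest fibroblast sum nor the highest neuron sum, which were both those of hybrid 3. Summed mural markers did not follow the order of the receptors in every line. They were 5959, 5891 and 1225 CPM in 129, 6760, 12818 and 1202 CPM in the hybrid, and 6170, 2033 and 3028 CPM in CAST. Hybrid 2 and CAST 1, lowest in receptors within their lines, thus had the highest mural sums, while 129 3 had the lowest in both. Acta2 and Tagln, with exon unions of 2196 and 1988 bases, made up most of these sums. They had 7055 and 5322 CPM in hybrid 2, and 4026 and 2105 CPM in CAST 1. Within CAST, Pdgfrb, Rgs5, Myh11, Abcc9 and Cspg4 were lowest in CAST 1, whereas Acta2, Tagln, Des and Kcnj8 were highest there. Fn1, with an exon union of 11685 bases, made up the largest part of the fibroblast sum of hybrid 1, at 20146 CPM. Dcn and Lum were similar in hybrid 1 and hybrid 2, at 998 and 922 CPM and at 211 and 207 CPM. Twist1, of 1628 bases, was higher in hybrid 2 than in hybrid 1 (74.7 against 34.9 CPM) and highest in CAST 1 within CAST. The other fibroblast markers were highest in hybrid 1 and lowest in CAST 1 within their lines. All 10 fibroblast and all 9 mural markers had reads in every line. The part of these markers in the receptor levels was not tested, and in bulk RNA fewer cells of a type and less RNA per cell cannot be told apart.

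Per kilobase of exon, an approximate scale for comparing genes, Notch3 exceeded Notch1 in all 9 libraries, by 1.56 to 4.50 times. In CPM, before division by length, Notch1 was above Notch3 in hybrid 1 (148 against 140.4) and hybrid 3 (53.9 against 47.9), and below it in the other libraries. The order in hybrid 1 and hybrid 3 thus rests on the exon unions. Notch2 per kilobase was 2.02, 3.25 and 1.89 times Notch1 in 129, 1.31, 0.859 and 0.710 times in the hybrid, and 0.961, 1.08 and 1.17 times in CAST. The 129 libraries lay above all 6 others in this ratio, which was chosen after its values were seen and carries no test. The exon union of a gene overstates the length of its transcripts where it has several isoforms. That overstatement shifts a ratio equally in every library if isoform use does not vary, but the length trends of the libraries also differed. Notch3 to Notch1 was highest in CAST 1 and hybrid 2, at 4.50 and 3.19. The part of the length trend in these ratios was not tested. Across the 9 libraries the centred log2 CPM of Notch1 lay closer to that of Notch3 (root mean square difference 0.45) than to that of any other tested member, followed by Notch2 (0.65).

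Opposite-strand genes cover 9.76% of the exonic bases of Notch1 and 6.033% of those of Notch3, and a same-strand gene 5.018% of those of Notch2.

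Among the ligands, Dll1 (ENSMUSG00000014773; chromosome 17, 15367354 to 15376872, minus strand), which newborn neurons present to their neighbours, varied least. It had 4.06, 3.35 and 4.94 CPM in 129, 4.46, 3.21 and 4.96 CPM in the hybrid, and 1.86, 3.99 and 4.44 CPM in CAST. CAST 1 was the lowest, and the lines overlapped. The log2 difference of the hybrid from 129 was 0.04 ± 0.44 (SE; 95% interval −0.96 to 1.03; edgeR adjusted p = 0.963). CAST minus 129 was −0.26 ± 0.45 (95% interval −1.25 to 0.74; edgeR adjusted p = 0.767). Exons of an antisense gene, A930024N18Rik, cover 20.55% of the exonic bases of Dll1, and without a stated strand setting their reads cannot be told apart.

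Dll3 (ENSMUSG00000003436; chromosome 7, 28293553 to 28302238, minus strand) is a divergent ligand of committed neuronal precursors that blocks Notch within its own cell. It had 0.556, 0.732 and 0.632 CPM in 129, from 10, 12 and 11 reads. The hybrid had 0.849, 3.07 and 4.47 CPM, from 12, 22 and 64 reads, and CAST had 5.16, 1.35 and 1.43 CPM, from 50, 24 and 20 reads. All 6 non-129 libraries lay above the 129 libraries, although hybrid 1 rested on 12 reads, as many as 129 2 had at a greater depth. With the length trend removed, Dll3 had 0.628, 0.861 and 0.739 CPM in 129 and 0.864, 2.11 and 4.01 CPM in the hybrid. CAST then had 4.14, 1.44 and 1.71 CPM, and hybrid 1 was nearly level with 129 2. The hybrid differed from 129 by 2.11 ± 0.76 (log2, SE; 95% interval 0.40 to 3.83; edgeR p before and after adjustment 0.0211 and 0.153). CAST minus 129 was 2.02 ± 0.76 (95% interval 0.30 to 3.73; edgeR p before and after adjustment 0.0257 and 0.268). Neither passed the threshold over all genes by edgeR, while DESeq2 gave an adjusted p of 0.0478 for the hybrid against 129. Hybrid minus CAST was 0.09 ± 0.72 with all libraries (edgeR adjusted p = 0.976). Without CAST 1, CAST minus 129 was 1.09 and hybrid minus CAST 0.995 (edgeR adjusted p = 0.693 and 0.425). In 129 only 1 library reached the filter's cutoff, against all 3 of the hybrid and of CAST, so Dll3 passed the filter through the groups where it is high.

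Jag1 (ENSMUSG00000027276; chromosome 2, 137081456 to 137116644, minus strand), a Serrate-type ligand of progenitor domains and of vessel walls, had 64.5, 135 and 63.1 CPM in 129. It had 98.5, 11.3 and 9.43 CPM in the hybrid and 4.65, 24.9 and 37.5 CPM in CAST. All CAST libraries lay below all 129 libraries, whereas the hybrid split, with replicate 1 within the 129 range and replicates 2 and 3 below it. CAST minus 129 was −1.97 ± 0.99 (log2, SE; 95% interval −4.20 to 0.27; edgeR p before and after adjustment 0.0777 and 0.383). Hybrid minus 129 was −1.14 ± 0.97 (95% interval −3.32 to 1.04; edgeR adjusted p = 0.475), and −3.13 without hybrid 1 (edgeR adjusted p = 0.0598). Hybrid minus CAST turned from 0.83 to −1.13 without hybrid 1, so that this library decided its sign. With the length trend removed, Jag1 still had 58.2, 124 and 56.3 CPM in 129 against 6.38, 22.7 and 34.9 CPM in CAST. Hybrid 1 was also the hybrid library with 39167 CPM of fibroblast markers, as given above, although Dcn and Lum were similar in hybrid 2. In CAST against 129 the median log2 fold change was −2.52 for fibroblast and −1.95 for mural markers. The summed CPM of 8 endothelial markers was 58.8 to 93.9 in 129, 20.2 to 43.4 in the hybrid and 13.0 to 42.4 in CAST. The part of any of these cells in the Jag1 levels was not tested.

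The balance of the ligands per kilobase followed these values. Jag1 was 11.5, 29.2 and 9.25 times Dll1 in 129, 15.998, 2.55 and 1.38 times in the hybrid, and 1.81, 4.53 and 6.11 times in CAST. Dll1 was 4.93, 3.10 and 5.28 times Dll3 in 129, 3.55, 0.706 and 0.749 times in the hybrid, and 0.243, 1.998 and 2.09 times in CAST. Jag1 was thus above Dll1 in every library, while Dll3 exceeded Dll1 in hybrid 2, hybrid 3 and CAST 1. These are the libraries whose length slope was negative, and Dll3 has the shorter exon union, at 2850 against 4219 bases. The part of transcript length in this order was not tested for the ratio itself.

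Hes1 (ENSMUSG00000022528; chromosome 16, 30064384 to 30067796, plus strand) is the repressor that Notch switches on in progenitors, and it responds to other signals as well. It had 29.9, 25.4 and 14.2 CPM in 129, 36.6, 71.7 and 38.01 CPM in the hybrid, and 48.5, 28.9 and 30.8 CPM in CAST. The hybrid libraries lay above all 129 libraries, and hybrid 2 was the highest. The log2 difference of the hybrid from 129 was 1.07 ± 0.42 (SE; 95% interval 0.12 to 2.03; edgeR p before and after adjustment 0.0311 and 0.183). With exon length as an offset the same difference was 0.30 (edgeR adjusted p = 0.569). With the length trend removed, 8 of the 9 libraries lay between 31.6 and 40.4 CPM, and 129 3 alone was lower, at 18.4 CPM.

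Hes5 (ENSMUSG00000048001; chromosome 4, 154960923 to 154962371, plus strand), the other main Notch effector of neural progenitors, had 0, 1 and 1 reads in 129, 1, 2 and 0 reads in the hybrid, and 20, 0 and 0 reads in CAST. All its CAST reads came from CAST 1, where they made 2.06 CPM. In a fit without the filter on low counts, CAST against 129 gave an edgeR adjusted p of 0.466. Exons of the antisense gene Gm20421 cover 31.77% of its exonic bases, so these reads may belong to either gene.

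Neurog2 (ENSMUSG00000027967; chromosome 3, 127633135 to 127635631, plus strand), the proneural factor that drives progenitors of spinal motor neurons to differentiate, had 5, 2 and 1 reads in 129, 2, 3 and 0 in the hybrid, and 0 in all CAST libraries. A count of 0 over CAST allows up to 3 reads, or 0.0724 CPM, for counting error only. In the fit without the filter, CAST against 129 gave an edgeR adjusted p of 0.419 (0.0478 before adjustment) and the hybrid against CAST one of 0.308 (0.0495 before adjustment). At this depth a difference between lines was not detectable for Neurog2.

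**Figure D3:**
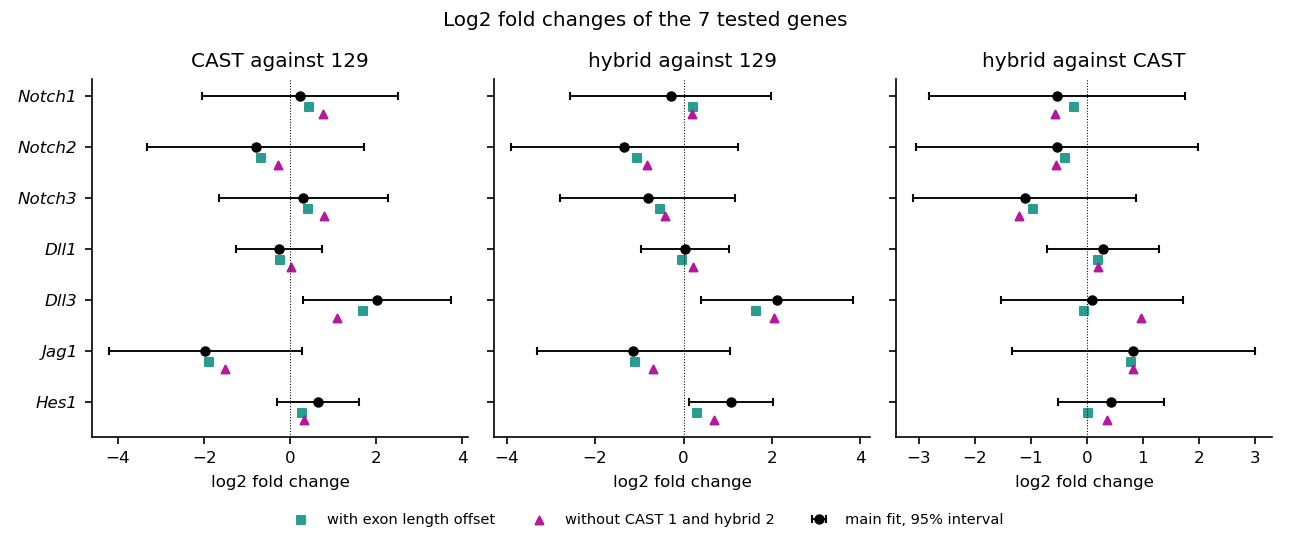
Points are log2 fold changes of the 7 tested genes in the 3 comparisons of a pair of lines, and bars are 95% intervals of the quasi-likelihood model. The intervals of Dll3 in both comparisons with 129 and of Hes1 in hybrid against 129 lie above 0 before adjustment, and the receptors and Jag1 have the widest intervals.

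Counted together, 0 of the 7 tested members passed an adjusted p of 0.05 by edgeR in CAST against 129, where 0.917% of all 14839 tested genes did. At an unadjusted p under 0.05 there was 1 (Dll3), beside 14.6% of all tested genes, and DESeq2 and limma-voom called 0. In hybrid against 129, edgeR called 0 members beside 7.02% of all genes, 2 had an unadjusted p under 0.05 (Dll3 and Hes1) beside 22.2% of all genes, DESeq2 called 1 and limma-voom 0. Over all genes DESeq2 also called more than edgeR, as given in the last section, and its 1 call is read beside that larger background. In hybrid against CAST, edgeR, DESeq2 and limma-voom called 0 members beside 6.00% of all genes by edgeR, and 0 had an unadjusted p under 0.05 beside 15.8% of all genes. These comparisons share libraries and are not independent of each other.

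Against the midparent (the log2 values of 129 and CAST averaged), edgeR called 0 members beside 7.34% of all genes, with 0 at an unadjusted p under 0.05 beside 18.4% of all genes, and DESeq2 and limma-voom called 0. Hes1 had the smallest p there, with 0.75 ± 0.35 (log2, SE; edgeR p before and after adjustment 0.0612 and 0.298). A joint test for any difference among the 3 lines called 0 members by edgeR beside 8.03% of all genes, with 1 at an unadjusted p under 0.05 (Dll3, at 0.0462) beside 21.1% of all genes, and DESeq2 and limma-voom called 0. The median log2 fold change of the members was 0.24, −0.29 and 0.09 for CAST and for the hybrid against 129, and for hybrid against CAST, beside 0.06, 0.02 and −0.08 for all tested genes.

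Groups of 3 libraries often do not overlap here. In CAST against 129 the libraries did not overlap for 2 of the 7 members (Dll3 and Jag1) and for 28.6% of all tested genes. In hybrid against 129 they did not overlap for 2 members (Dll3 and Hes1) and for 37.5% of all genes, and in hybrid against CAST for 0 members and 19.2% of all genes. The shares among members were therefore near or below those of all genes.

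The wider pathway held 48 further genes, of which 43 were in the matrix and 41 were tested. Aph1a, Aph1b, Aph1c, Psenen and Dtx1 were not analysed here. EdgeR called 0 of the 41 in CAST against 129, where 3 (7.32%) had an unadjusted p under 0.05 beside 14.6% of all tested genes, DESeq2 called 1 (Hey1), limma-voom called 0 and the median log2 fold change was 0.10. In hybrid against 129 edgeR called 1 lower, with a median of −0.23, and in hybrid against CAST it called 1 lower, with a median of −0.22. Before adjustment, 5 (12.2%) and 3 (7.32%) had a p under 0.05 in these, beside 22.2% and 15.8% of all genes. Against the midparent it called 1 higher and 1 lower, with 4 (9.76%) at an unadjusted p under 0.05 beside 18.4% of all genes. These shares of all genes are the background for the counts at an unadjusted p in the smaller lists below. The lower call was Nrarp each time, and the higher one was Hes3.

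**Figure D4:**
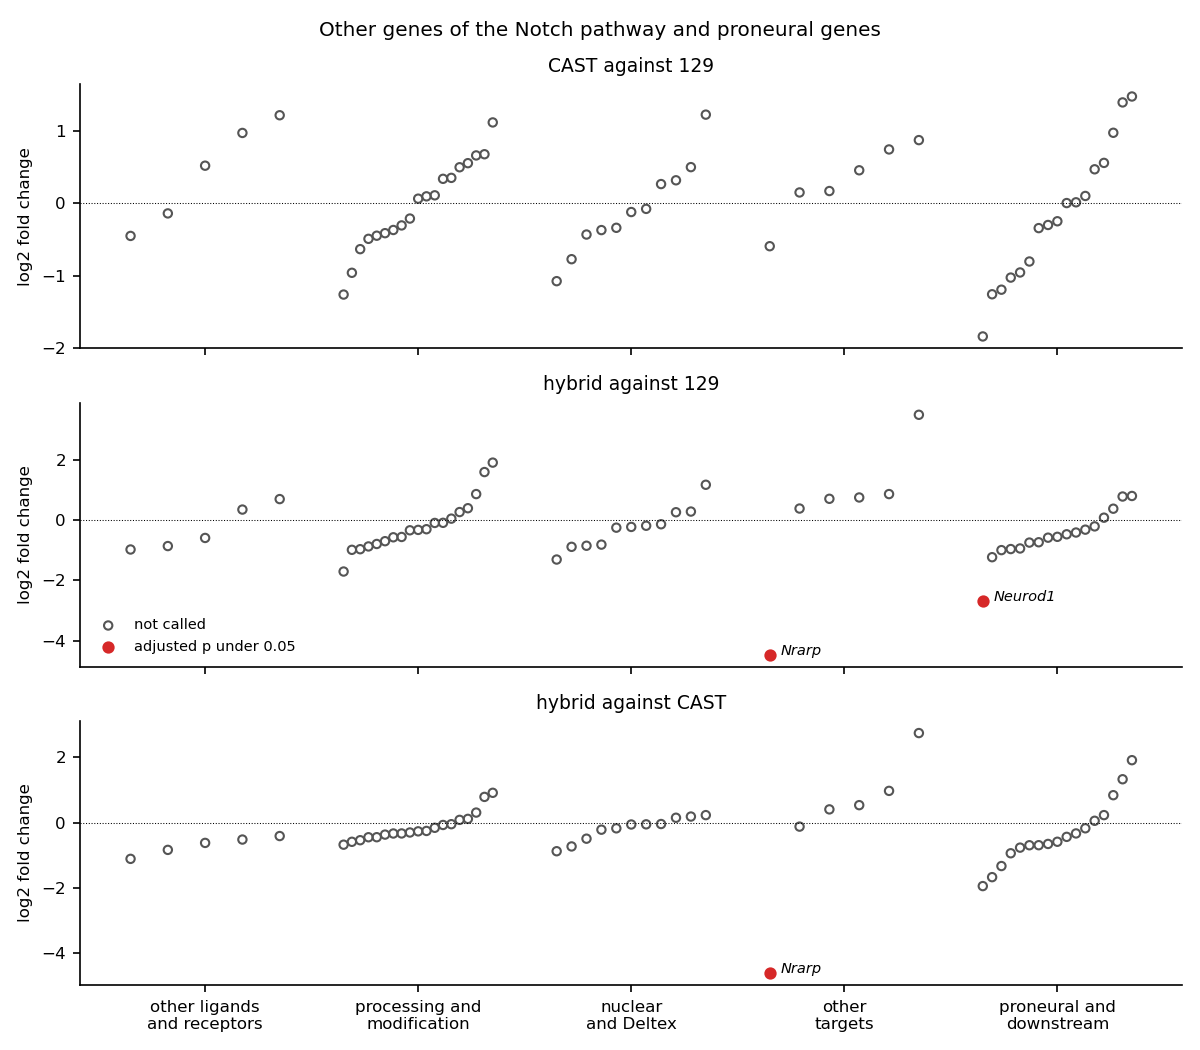
Each point is the log2 fold change (vertical axis) of 1 of the 41 tested pathway genes or 17 tested proneural and downstream genes outside the members, arranged by role and sorted by value, with a panel for each pair of lines. Filled points passed the threshold by edgeR: Nrarp in both hybrid panels (−4.47 and −4.62), Neurod1 in hybrid against 129 (−2.70), and none in CAST against 129.

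Nrarp (ENSMUSG00000078202; chromosome 2, 25180758 to 25183339, plus strand) is a Notch target whose small protein binds the Notch and RBPJ complex and dampens it. It had 3.34, 4.21 and 10.4 CPM in 129 and 6.92, 5.22 and 7.81 CPM in CAST. The hybrid had 0.142, 0 and 0.559 CPM, from 2, 0 and 8 reads, and every hybrid library lay below every library of both parental lines. Hybrid libraries were lower than 129 for Nrarp, at −4.47 ± 0.84 on the log2 scale (SE; adjusted p = 0.0114 by edgeR), and lower than CAST, at −4.62 ± 0.85 (adjusted p = 0.0105 by edgeR). CAST minus 129 was 0.15 ± 0.68 (edgeR adjusted p = 0.915). Over 18 alternatives, DESeq2 and limma-voom among them, the hybrid difference ran from −5.95 to −3.82 against 129, with adjusted p from 4.4e-07 to 0.0459, and from −6.09 to −4.15 against CAST, with adjusted p from 1.9e-07 to 0.0419. It passed the filter through either parental line, where it is high, and without the filter the hybrid differences were −4.51 and −4.64 (edgeR adjusted p = 0.00630 and 0.00532). Exons of the antisense gene Gm38287 cover 79.43% of the exonic bases of Nrarp, and without a stated strand setting reads of both cannot be told apart, also in the values above. Gm38287 had 0 rows in the matrix.

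Hes3 (ENSMUSG00000028946; chromosome 4, 152285972 to 152291662, minus strand), a Hes repressor of early progenitors, had 2, 2 and 0 reads in 129, 10, 10 and 12 reads in the hybrid, and 0, 4 and 2 reads in CAST. Each hybrid library had more reads than any parental library. The hybrid lay above the midparent by 3.12 ± 0.74 (log2, SE; edgeR adjusted p = 0.0319), a call that was lost under 12 alternatives, with adjusted p up to 0.102 without hybrid 2. Hes3 reached the filter's count minimum in the hybrid libraries only, the group where it is high, so its being tested at all depended on that difference, and without the filter the midparent call was lost (edgeR adjusted p = 0.0742). Against each parental line alone it did not pass (edgeR adjusted p = 0.0611 against 129 and 0.146 against CAST).

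A target and a modifier of the pathway lay outside the rule for named genes and were picked after their values were seen. Hey1, a Hes-related repressor, had 14.7, 13.4 and 17.2 CPM in 129, 22.5, 24.3 and 29.3 CPM in the hybrid, and 29.3, 28.4 and 25.4 CPM in CAST. Its 129 libraries lay below all others, with an edgeR adjusted p of 0.208 for CAST against 129 and of 0.0322 by DESeq2. Lfng, the glycosyltransferase that changes which ligands a Notch receptor answers to, had 19.1, 11.1 and 6.84 CPM in 129, 34.9, 27.8 and 48.9 CPM in the hybrid, and 8.88, 24.6 and 25.7 CPM in CAST. The hybrid differed from 129 by 1.59 ± 0.52 for Lfng (log2, SE; edgeR adjusted p = 0.115), and the adjusted p was 0.0306 by DESeq2 and 0.0496 by edgeR without CAST 1. Over all genes DESeq2 called more than edgeR in the comparisons of Hey1 and Lfng, as given in the last section.

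By role, the further ligands and receptors had 5 tested genes and edgeR called 0 in any comparison, with unadjusted p under 0.05 for 1, 0, 1 and 1 in CAST against 129, the 2 other pairwise comparisons in the order above, and midparent. DESeq2 and limma-voom called 0 of these as well. The non-canonical ligands Dner and Dlk1 were the most abundant of them. Dner had mean CPM of 184 ± 64.0, 93.5 ± 42.8 and 168 ± 43.8 in 129, the hybrid and CAST (SD, n = 3). Hybrid minus 129 was −0.98 ± 0.45 for Dner and −0.86 ± 0.45 for Dlk1 (log2, SE; edgeR adjusted p = 0.238 and 0.285).

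Of the 19 tested genes that process ligands and receptors, edgeR called 0 in any comparison, with 0, 1, 0 and 1 at an unadjusted p under 0.05 in the same order. DESeq2 called Lfng alone, in hybrid against 129, and limma-voom called 0. The most abundant were Adam10, the protease that makes the first cut in the receptor, and Mib1, the ubiquitin ligase that lets ligands be endocytosed. Adam10 had 400.1, 387 and 321 CPM in 129, 402, 33.4 and 130.5 CPM in the hybrid, and 31.4, 273 and 411 CPM in CAST. Its lowest libraries were CAST 1 and hybrid 2, as for the receptors. Of the 11 tested nuclear partners and regulators edgeR also called 0, with 1, 1, 0 and 0 at an unadjusted p under 0.05, and DESeq2 and limma-voom called 0. Dtx3, of the Deltex family, was among the most abundant. It had 86.8, 84.8 and 104 CPM in 129, 105, 281 and 234 CPM in the hybrid, and 344, 181 and 120 CPM in CAST, with CAST minus 129 at 1.23 ± 0.50 (log2, SE; edgeR adjusted p = 0.305). The highest libraries for Dtx3 were CAST 1 and hybrid 2, and the part of transcript length in its levels was not tested.

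The proneural list held 24 genes with their downstream factors, of which 17 were tested. EdgeR called 0 in CAST against 129, 1 lower in hybrid against 129, 0 in hybrid against CAST and 0 against the midparent, with 3, 2, 4 and 3 at an unadjusted p under 0.05. DESeq2 called 0, 1, 1 and 2 in the same order, and limma-voom 0, 1, 0 and 0. Neurog1 had 0 reads in every library and Neurog3 had 2 in all, from 129 1. All 3 neurogenins, which act first in this cascade, were thus at or near 0 reads in these libraries.

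Neurod1 (ENSMUSG00000034701; chromosome 2, 79452521 to 79456751, minus strand), a neuronal differentiation factor that acts after the neurogenins, was the 1 call. It had 11.5, 22.7 and 32.9 CPM in 129, 3.47, 1.12 and 5.52 CPM in the hybrid, and 7.85, 7.30 and 17.8 CPM in CAST. Every hybrid library lay below every other library. Exons of Cerkl, on the same strand, cover 7.365% of the exonic bases of Neurod1. The log2 difference of the hybrid from 129 was −2.70 ± 0.66 (SE; edgeR adjusted p = 0.0387), and the call was lost under 7 alternatives, with adjusted p up to 0.142 without 129 3. Against CAST the value was −1.68 ± 0.64 (edgeR adjusted p = 0.217).

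**Figure D5:**
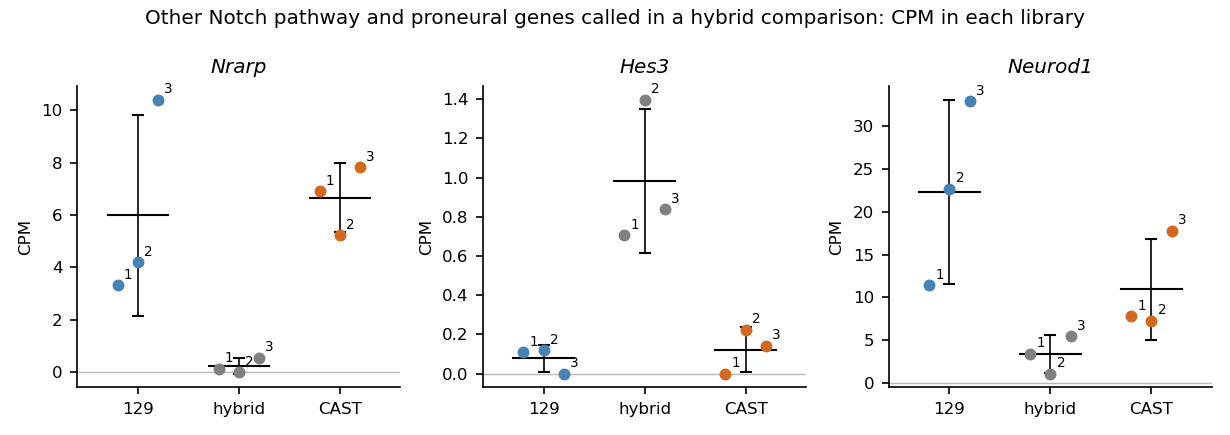
The panels plot the CPM of Nrarp, Hes3 and Neurod1 by line, with a point per library and black bars for the mean and SD of 3 libraries. The hybrid libraries of Nrarp lie between 0 and 0.559 CPM, below all parental libraries, those of Hes3 lie above all parental libraries, and those of Neurod1 lie below all others.

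Among factors that work with or against bHLH proteins, 6 of 7 listed Id and E protein genes were tested and edgeR called 0 in each comparison, with 0, 2, 0 and 1 at an unadjusted p under 0.05. DESeq2 called 0, 2, 0 and 1, and limma-voom 0. Id3, an inhibitor of bHLH factors, had 123, 89.8 and 49.8 CPM in 129, 163, 922 and 284 CPM in the hybrid, and 307, 112 and 111 CPM in CAST. Its hybrid libraries lay above the 129 libraries, with hybrid minus 129 at 2.38 ± 0.74 (log2, SE; edgeR adjusted p = 0.0986). In that comparison the libraries did not overlap for 37.5% of all tested genes. Id3 has a short exon union, of 1791 bases, and was highest in hybrid 2 and CAST 1 within their lines. The part of transcript length in its levels was not tested. Tcf4, an E protein that pairs with proneural factors, differed by −0.99 ± 0.72 (log2, SE; edgeR adjusted p = 0.409).

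Progenitor markers, which Notch signalling is known to maintain, gave 0 calls by edgeR among 10 tested genes in each comparison, with 2, 2, 1 and 1 at an unadjusted p under 0.05. DESeq2 called 1 in each comparison and limma-voom 0. Their summed level was 4497, 2481 and 1467 CPM in 129, 3835, 6226 and 5329 CPM in the hybrid, and 3726, 4407 and 4548 CPM in CAST, a sum to which Vim contributed most. In hybrid against 129, 6 of the 10 had a positive log2 fold change and their median was 0.37. The most abundant were both positive: Fabp7, a fatty acid binding protein of radial glia, had hybrid minus 129 at 1.69 ± 0.58, and Vim, their intermediate filament, at 1.09 ± 0.57 (log2, SE; edgeR adjusted p = 0.134 and 0.284). Ccnd1, a cyclin of dividing progenitors, was at −1.50 ± 0.97 and Sox21 at −1.22 ± 0.81 (edgeR adjusted p = 0.365 and 0.373), and Nes and Pax6 were negative as well. The 12 neuron markers gave 0 calls by edgeR, DESeq2 and limma-voom, with 0 at an unadjusted p under 0.05 in each comparison. In hybrid against 129, 5 of the 12 had a positive log2 fold change and their median was −0.59, with Dcx, a microtubule protein of young neurons, at −1.82 ± 1.02 and Map2, of dendrites, at −1.49 ± 0.87 (log2, SE; edgeR adjusted p = 0.310 and 0.324). The most abundant, the neurofilament genes Nefl and Nefm, had hybrid minus 129 at 0.11 ± 0.63 and 0.42 ± 0.59 (log2, SE; edgeR adjusted p = 0.918 and 0.667).

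Markers of other cells were set beside the hybrid calls. Of 7 tested glial markers edgeR called 1, Gfap, against the midparent, where the hybrid lay higher by 3.90 ± 0.86 (log2, SE; edgeR adjusted p = 0.0211). Gfap, the filament of astrocytes, had 27.0, 3.17 and 3.10 CPM in 129, 76.6, 305 and 162 CPM in the hybrid, and 2.17, 23.1 and 14.4 CPM in CAST. Its hybrid libraries thus lay above all others, as those of Hes3 did and opposite to those of Nrarp and Neurod1. Most other glial markers went the other way. Against the midparent, 2 of the 7 tested had a positive log2 fold change, Gfap among them, and their median was −0.65. Mbp was at −1.53 ± 0.59 there (log2, SE; edgeR adjusted p = 0.197), and DESeq2 called it lower in hybrid against 129. The summed CPM of all 8 glial markers overlapped, at 93.0 to 330 in 129, 168 to 386 in the hybrid and 102 to 250 in CAST. The part of glial cells in the levels of Nrarp, Hes3 and Neurod1 was not tested. EdgeR called 0 of the 9 mural and 0 of the 10 fibroblast markers in each comparison, DESeq2 up to 4 of each and limma-voom 0. In CAST against 129, 4 mural (44.4%) and 4 fibroblast markers (40%) had an unadjusted edgeR p under 0.05, beside 14.6% of all genes. Their median log2 fold changes were −1.95 and −2.52, with 2 and 1 positive. In hybrid against CAST, 4 of each had such a p, beside 15.8% of all genes, and 9 of each were positive. Whether the share of such cells differed between lines was not tested.

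Likeness to other genes was measured for Notch1 and Hes1, since Hes5 and Neurog2 had too few reads for it, a choice made after the counts were seen. The tested genes with a mean of at least 5 CPM closest to Notch1 in centred log2 CPM over the 9 libraries were Tmem47, Aspm and Ttc28 (root mean square difference 0.28, 0.28 and 0.31). Their exon unions of 4025, 11590 and 12315 bases were, for the last 2, as long as those of the receptors. Closest to Hes1 were Nr2f6, Glmp and Tmem150a (0.11, 0.12 and 0.13). Among the members themselves, Notch2 and Dll3 lay farthest apart, at 2.76.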

How the data were processed

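The deposited matrix lists raw counts for 27071 Ensembl gene IDs, as whole numbers that the authors left unscaled as far as their values show. STAR and mm10 are the aligner and build named in the submitters' processing notes. How reads were counted (tool, annotation, strand) and the STAR version: not given in the sources used here. Of 11 labelled samples, 9 have a column. CAST samples 7 and 8 were not analysed here. The digit that follows B in a column name was read as the labels' replicate number. Total counts of 7763077 to 18167577 set the precision, and the limit for 0 counts covers counting error only.

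Symbols, coordinates and exon lengths came from a GENCODE annotation of GRCm38 (mm10), joined by Ensembl ID, which left 40 genes with no symbol. Exon overlaps come from it too, and it need not be the annotation used for counting. Genes were kept by filterByExpr of edgeR 4.0.16 in R 4.3.3 (minimum count 10, minimum total 15, minimum proportion 0.7), then normalized by TMM. A robust quasi-likelihood model held all 3 lines in 1 fit. Two-sided p-values were adjusted by Benjamini-Hochberg over 14839 genes, with a threshold of 0.05. The fit was tested on simulated data, with its only pass condition set at low dispersion. That condition does not measure power at the spread of these libraries. The length trend is a natural spline with 3 degrees of freedom on log2 exon length, fitted per library.

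The members, gene lists and tests were chosen with earlier results of these data known. The rule for named genes gave all members, every list gene past the threshold in CAST against 129, up to 3 per direction of those past it in a hybrid comparison, or the 2 most abundant where none passed. Some genes under this rule or picked later are not reported here. Alternatives were RLE size factors, DESeq2 1.42.0, limma-voom (limma 3.58.1), no filter, a non-robust fit, only the groups compared, a replicate block, leaving out libraries, and an exon length offset.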

Additional observations from a re-analysis of the deposited data

How the results depend on the processing

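Of 28 member fold changes, 17 kept their sign under every alternative run and 11 changed it under some. No member call was lost, since there was none to lose, and members called stayed at 0 in 87 of 88 alternatives, the exception being 1 under DESeq2 in hybrid against 129 (Dll3). Under limma-voom, CAST against 129 was −0.51 for Notch1 and −0.32 for Notch3. Without both CAST 1 and hybrid 2, Dll1 was 0.0084 in CAST against 129, Notch1 0.19 in hybrid against 129 and Jag1 0.064 against the midparent. With the exon length offset, hybrid against 129 was 0.21 for Notch1 and −0.038 for Dll1, and hybrid against CAST −0.053 for Dll3, while Dll1 was −0.013 in hybrid against 129 with no filter. Leaving out 1 library at a time, CAST against 129 ran from −0.56 to 0.76 for Notch1, −0.71 to 0.79 for Notch3 and −0.49 to 0.021 for Dll1. Hybrid against 129 ran from −1.38 to 0.22 for Notch1 and −0.11 to 0.20 for Dll1. Hybrid against CAST ran from −1.59 to 0.26 for Notch1, −2.20 to 0.34 for Notch2, −0.46 to 0.995 for Dll3 and −1.13 to 1.42 for Jag1. Against the midparent it ran from −1.48 to 0.090 for Notch1 and −2.13 to 0.31 for Jag1. The cause was not tested. The labels do not say whether equal replicate numbers mark a shared batch. Of 9 same-number pairs, 2 correlated above 0.1 (range −0.72 to 0.49). These correlations cannot decide the question, since the length trends of the libraries differed. With the replicate block 0 members were called, and calls over all genes fell from 136 to 6, 1041 to 561 and 891 to 526 in CAST against 129, hybrid against 129 and hybrid against CAST. DESeq2 gave 939, 2100 and 1597 in these, and 1790 against 1089 for the midparent. Other settings gave 26 (without 129 2) to 297 (exon length offset) in CAST against 129, and 522 (without 129 2) to 1717 (without CAST 1) in hybrid against 129. Further pathway genes called in hybrid against 129 rose from 1 to 4 under DESeq2, and in the midparent comparison fell from 2 to 1 under the 12 alternatives that lost Hes3. At 3 libraries per line and spreads of this size, receptor changes of several fold were not detectable.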
